A study of Mus musculus with 19 samples.

Results

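The genes described here are 10 members of the canonical Wnt pathway: Wnt10b, Lrp6, Sfrp1, Sfrp2, Sfrp4, Ctnnb1, Tcf7l2, Lef1, Axin2 and Nkd1. They were chosen by name, and all 10 were among the 24237 genes of the expression table. The choice rested on values measured in these mice, since the level of Axin2 in normal-Mg2+ mice on both fat contents was known when the list was drawn up. The samples were epididymal white adipose tissue (eWAT, the fat pad attached to the epididymis) of 19 male C57Bl6/J mice, 1 RNA-seq library per mouse. Mice aged 9 to 10 weeks were allocated to 1 of 4 purified diets, acclimatized on standard chow, and then kept on their diet for 17 weeks. The low-fat diet (LFD) took 10% and the high-fat diet (HFD), based on palm oil, 60% of its energy from fat, and MgO made up 0.21% (NormMg) or 0.03% (LowMg) of the diet by weight. NormMg-LFD comprised 4 mice, and LowMg-LFD, NormMg-HFD and LowMg-HFD comprised 5 each; the labels give no difference between the groups other than diet.

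Wnt proteins are secreted signals that bind Frizzled receptors together with the co-receptors Lrp5 and Lrp6. Binding disables a cytoplasmic complex built on Axin that otherwise destroys β-catenin (Ctnnb1), so that β-catenin enters the nucleus and activates genes together with DNA-binding factors of the TCF/LEF family. Some of the activated genes, Axin2 and Nkd1 among them, encode inhibitors of the pathway and close a negative feedback loop, and in adipose tissue active Wnt signalling is known to hold precursor cells back from becoming adipocytes.

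Axin2 lies on the plus strand at chr11:108920349-108950783 and Nkd1 at chr8:88521354-88594884 (GRCm38, GENCODE). As these are the feedback genes on which the results turn, the 250 bases before the RefSeq start of each (build GRCm38.p6) are shown 5′ to 3′. The Nkd1 window starts inside the longer gene model of GENCODE. Capitals mark GC boxes (GGGCGG or its reverse complement CCGCCC), and capitals would also mark the TCF/LEF core CTTTGA or TCAAAG.
Axin2, chr11:108920099-108920348: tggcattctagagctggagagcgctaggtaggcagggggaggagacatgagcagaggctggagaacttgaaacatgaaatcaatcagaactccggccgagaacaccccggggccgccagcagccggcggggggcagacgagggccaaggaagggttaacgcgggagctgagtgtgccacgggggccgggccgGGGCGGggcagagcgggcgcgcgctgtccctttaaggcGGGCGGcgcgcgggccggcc
Nkd1, chr8:88527383-88527632: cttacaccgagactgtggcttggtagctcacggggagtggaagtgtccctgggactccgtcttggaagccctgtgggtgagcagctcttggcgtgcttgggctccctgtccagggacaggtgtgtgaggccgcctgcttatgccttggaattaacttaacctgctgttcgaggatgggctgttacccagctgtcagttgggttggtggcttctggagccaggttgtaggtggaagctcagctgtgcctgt
The Axin2 window was 69.2% G or C and held 2 GC boxes, whereas the Nkd1 window was 58.4% G or C and held none. Neither held the TCF/LEF core. Of the 32851 windows in the RefSeq table, 32.7% held a GC box and 13.8% the TCF/LEF core on either strand. Promoter windows were at hand for 7 of the 10 genes, and among these a TCF/LEF core occurred only before an alternative start of Lef1.

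Between 12986441 and 13027028 reads were sequenced per library, and 86.12% to 90.41% of them mapped. All libraries held the adipocyte markers: none of the 14 adipocyte genes was at 0 in any mouse. Some libraries of the low-fat groups nevertheless stood apart. NormMg-LFD replicate 3 was high in genes of the exocrine pancreas, with a sum of 1710 FPKM over 11 pancreas genes against 12.3 to 52.6 FPKM in the other 18 mice, and LowMg-LFD replicate 4 was high in genes of the epididymis, with a sum of 137 FPKM over 10 genes. The second highest epididymis sum was 29.8 FPKM, in LowMg-HFD replicate 4, and it was nearly all 1 gene, Cst8 (27.54 FPKM). In LowMg-LFD the highest Cst8 value was 1.65 FPKM and the highest Crisp1 value 91.15 FPKM. Results were therefore also computed without both of these low-fat libraries. The study's methods place a library with pancreas tissue, left out of its analyses, in the LowMg-HFD group, whereas the library high in pancreas genes is labelled NormMg-LFD. The 5 LowMg-HFD libraries had pancreas sums of 21.1 to 44.6 FPKM. The labels were used as given. Over the whole macrophage list, NormMg-LFD replicate 3 was below all LowMg-HFD mice in 8 of 12 genes and above them all in 1, and the other NormMg-LFD mice were below them all in 5 to 9. Over the adipocyte list it was above all LowMg-HFD mice in 6 of 14 genes and below them all in 2, and the other NormMg-LFD mice were above them all in 1 to 10 and below in 1 to 7. The label itself was not tested. NormMg-LFD replicate 4 had the highest sums of all mice for mesothelial (124 FPKM), smooth muscle (202 FPKM) and endothelial markers (487 FPKM), each close to the next mouse (122, 196 and 480 FPKM), and the lowest adipocyte sum of its group (22200 FPKM against 26900 to 29800). The mesothelial rank depended on the measure: its mean log2(FPKM + 1) over that list was 3.22, under NormMg-LFD replicate 5 (3.37) and LowMg-LFD replicate 4 (3.42).

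Expression was measured as FPKM, fragments per kilobase of transcript scaled to the number of mapped reads, which allows levels of different genes to be compared. Ctnnb1 was by far the most abundant of the 10 genes, with a mean of 149 ± 22.8 FPKM (SD, n = 19), which is above 98.0% of all genes. Lrp6 followed at 21.9 ± 2.21 FPKM and Nkd1 at 15.9 ± 6.21 FPKM. Then came Axin2 (11.3 ± 6.42 FPKM), Sfrp1 (9.84 ± 5.35), Sfrp2 (8.73 ± 3.30), Tcf7l2 (7.87 ± 2.23) and Sfrp4 (4.79 ± 2.66). From Lrp6 down to Tcf7l2, neighbours in this order differed by less than the larger of their SDs. The order is over all mice and did not hold in each group: in NormMg-HFD the mean of Sfrp4 (8.26 FPKM) was above those of Tcf7l2 (6.17) and Axin2 (5.87). Lef1 (1.01 ± 1.17 FPKM) and Wnt10b (0.947 ± 0.429 FPKM) were close to the detection range of these libraries, with as few as about 12 and 10 reads behind the lowest value. Because a mean above 1 FPKM over the 19 mice was required for testing, 9 of the 10 genes could be tested. Wnt10b was described only, and Lef1 met the requirement through LowMg-HFD replicate 4, without which its mean fell under 1.

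**Figure D1:**
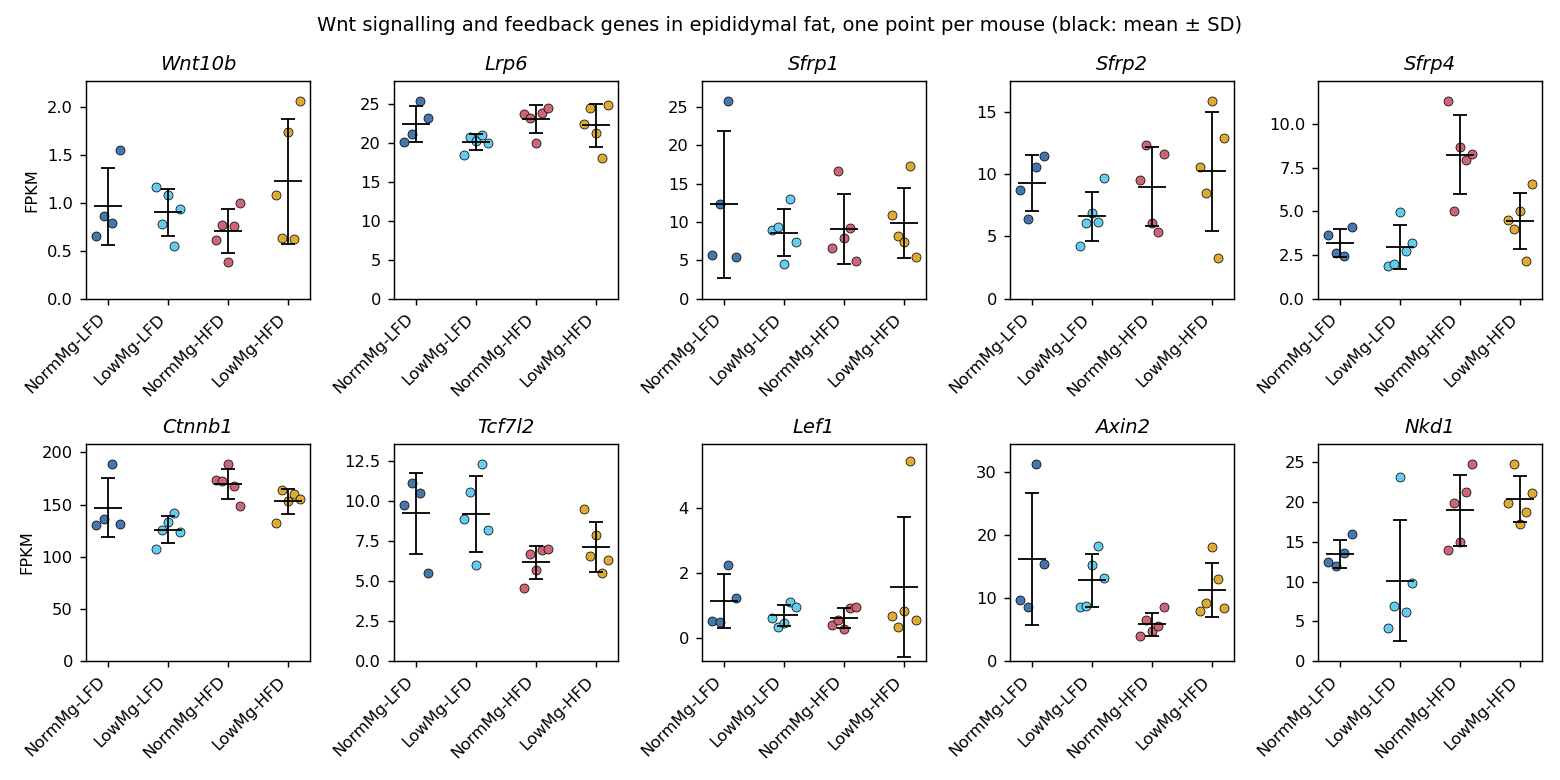
FPKM (y axis, linear) of each of the 10 genes in each mouse (points), by diet group, with black lines for the group mean and SD. Axin2 was lowest in NormMg-HFD and Sfrp4 highest there, and 4 of the 5 LowMg-LFD mice had the lowest Nkd1 values of all mice.

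The comparison of HFD with LFD at normal Mg2+ was the one that the choice of genes rested on, so these values are descriptive and were not tested. Axin2, a scaffold protein of the destruction complex and a direct target of β-catenin, was measured at 9.67, 8.57, 31.33 and 15.41 FPKM in NormMg-LFD replicates 2 to 5. In NormMg-HFD replicates 1 to 5 it was 3.92, 6.46, 4.75, 5.62 and 8.62 FPKM. All NormMg-HFD mice but replicate 5 were below all NormMg-LFD mice, and replicate 5 exceeded the lowest NormMg-LFD mouse by a small margin, so the groups overlapped. The group means were 16.2 ± 10.5 and 5.87 ± 1.80 FPKM (SD), a difference of -1.19 ± 0.32 (SE) on the log2(FPKM + 1) scale. NormMg-LFD replicate 4 set the size of this difference, which was -0.83 without it and -1.41 without the library high in pancreas genes.

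At low Mg2+ the fat content was compared in mice other than those whose Axin2 values the choice rested on. Since the genes were chosen with earlier results of these data known, tests in these mice are not fully independent of the choice. Axin2 was 8.52, 8.79, 15.32, 18.24 and 13.15 FPKM in LowMg-LFD and 7.99, 9.16, 18.07, 13.05 and 8.42 FPKM in LowMg-HFD. Both groups spanned nearly the same range. The means were 12.8 ± 4.20 and 11.3 ± 4.26 FPKM (SD), and the difference of -0.17 ± 0.30 (SE, log2 scale) did not pass the test (limma, adjusted p = 0.799). The difference was -0.04 without LowMg-LFD replicate 4, -0.34 without LowMg-HFD replicate 3, and -0.34 with each library centred on its median. That Axin2 differed by -1.19 at normal and by -0.17 at low Mg2+ is a comparison of values only, since the difference between them was not tested for a gene chosen on one of them. In the order of group means Axin2 went from NormMg-LFD (16.2 FPKM) through LowMg-LFD (12.8) and LowMg-HFD (11.3) to NormMg-HFD (5.87), and neighbours among the first 3 differed by less than the smaller of their SDs. NormMg-LFD and LowMg-HFD differed by more than the SD of LowMg-HFD (4.26 FPKM) and by less than that of NormMg-LFD (10.5 FPKM), and NormMg-HFD was below LowMg-HFD by more than either SD.

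Between the HFD groups Axin2 was 0.82 ± 0.30 (SE) higher in LowMg-HFD than in NormMg-HFD on the log2 scale, with means of 11.3 and 5.87 FPKM. This comparison shares the NormMg-HFD mice with the one the choice rested on, and the value was not tested. The 2 highest NormMg-HFD mice (6.46 and 8.62 FPKM) were on either side of the lowest LowMg-HFD mouse (7.99 FPKM). On the LFD the difference between LowMg and NormMg was -0.20 ± 0.32 (SE), and without NormMg-LFD replicate 4 it turned to 0.16.

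The other feedback gene followed another pattern. Nkd1 encodes a cytoplasmic protein that binds Dishevelled and dampens Wnt signalling. It was measured at 4.23, 7, 23.23, 6.22 and 9.80 FPKM in LowMg-LFD and at 19.90, 24.87, 17.26, 18.75 and 21.14 FPKM in LowMg-HFD. Apart from LowMg-LFD replicate 3, which was as high as the HFD mice, every LowMg-LFD mouse was below every LowMg-HFD mouse. The means were 10.1 ± 7.61 and 20.4 ± 2.89 FPKM (SD, n = 5 each). None of the 8 genes tested other than Lef1, described below, was without overlap between these groups, against 6.57% of all genes tested. Nkd1 rose by 1.15 ± 0.28 (SE) on the log2 scale, and was the 1 gene of these 8 that passed the threshold (limma, adjusted p = 0.0144). Of all 14267 genes tested, 9.18% passed it in this comparison, beside 1 of these 8. That background was 1310 genes and fell to 704 without LowMg-HFD replicate 2 and to 402 when only the 2 groups were fitted. The call held without both libraries that stood apart (1.05, adjusted p = 0.0423) and was lost when only these 2 groups were fitted (1.15, adjusted p = 0.0860).

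At normal Mg2+ Nkd1 was 12.44, 12.04, 13.64 and 16.01 FPKM in NormMg-LFD and 14.04, 19.90, 15.03, 21.30 and 24.80 FPKM in NormMg-HFD, a log2 difference of 0.44 ± 0.30 (SE) that belongs to the untested comparison. NormMg-HFD replicates 2, 4 and 5 were above all NormMg-LFD mice. Low Mg2+ made no detectable difference to Nkd1 on the HFD (0.11 ± 0.28, SE, adjusted p = 0.836, limma). On the LFD, where 4 of the 5 LowMg mice were below all 4 NormMg mice and the remaining one was above them, the difference was -0.60 ± 0.30 (SE, adjusted p = 0.854, limma). It was -0.94 without LowMg-LFD replicate 3 and -0.38 without LowMg-LFD replicate 1. By its group means Nkd1 was ordered LowMg-LFD (10.1 FPKM), NormMg-LFD (13.5), NormMg-HFD (19) and LowMg-HFD (20.4), with neighbours within the larger SD except between NormMg-LFD and NormMg-HFD.

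Secreted frizzled-related proteins are inhibitors that bind Wnt ligands outside the cell. Of the 3 among the 10 genes, Sfrp4 had the largest ratio of group means in the 4 comparisons, at 2.58-fold, against 1.55-fold at most for Sfrp2 and 1.43-fold for Sfrp1. Sfrp4 was 3.63, 2.59, 2.44 and 4.13 FPKM in NormMg-LFD and 11.35, 5.02, 8.70, 7.93 and 8.31 FPKM in NormMg-HFD. It was the only gene of the 9 whose NormMg-LFD and NormMg-HFD values did not overlap, in a comparison in which 25.5% of all tested genes did not, with an untested log2 difference of 1.13 ± 0.26 (SE). In LowMg-HFD the values were 4.52, 3.98, 5.01, 2.15 and 6.58 FPKM, and in LowMg-LFD they were 1.87, 1.98, 4.98, 2.70 and 3.16 FPKM. All LowMg-HFD mice but replicate 5 were below all NormMg-HFD mice.

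Low Mg2+ went with less Sfrp4 mRNA on the HFD, by -0.79 ± 0.24 (SE) on the log2 scale and from 8.26 ± 2.26 to 4.45 ± 1.61 FPKM (SD, n = 5 each; limma, adjusted p = 0.0438). Sfrp4 was the 1 gene called among the 7 tested there, Axin2 and Lef1 being left out, against a background of 10.8% of all tested genes (1536 genes, and 850 without NormMg-HFD replicate 3). The test shares the NormMg-HFD mice with the comparison the choice rested on. It also sat at the threshold: 17 of 27 alternative settings moved the adjusted p above it, among them leaving out any single HFD mouse other than NormMg-HFD replicate 2 and LowMg-HFD replicate 5, and the log2 difference stayed between -0.93 and -0.60. Leaving out both libraries that stood apart gave an adjusted p of 0.0578, although neither library belongs to the groups compared. At low Mg2+, HFD and LFD differed by 0.47 ± 0.24 (SE) in Sfrp4, which did not pass the test (adjusted p = 0.267, limma). That difference was 0.30 with median centring (adjusted p = 0.591) and 0.26 with quantile normalization (adjusted p = 0.682, limma).

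Sfrp1 and Sfrp2 did not pass any test. Sfrp1 ranged from 4.49 to 25.83 FPKM over all mice and its widest group was NormMg-LFD, at 5.66, 12.40, 25.83 and 5.38 FPKM. The direction of its difference depended on single mice in each tested comparison. Sfrp2 was 4.21, 6.07, 6.85, 6.10 and 9.67 FPKM in LowMg-LFD and 10.58, 8.50, 15.86, 3.25 and 12.88 FPKM in LowMg-HFD. LowMg-HFD replicate 4 was the lowest of all mice and the other 4 were above all LowMg-LFD mice except replicate 5, which exceeded 1 of them. The log2 difference was 0.46 ± 0.31 (SE, adjusted p = 0.407, limma), and without that mouse it was 0.78 with an adjusted p of 0.0499. Without LowMg-HFD replicate 3 it was 0.28, with median centring 0.30 and with quantile normalization 0.25, and none of these passed.

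Upstream of β-catenin are the ligand Wnt10b and the co-receptor Lrp6. Wnt10b, a ligand that restrains adipocyte formation, was between 0.38 and 2.06 FPKM in every mouse. Its highest values, 1.73 and 2.06 FPKM, were in LowMg-HFD replicates 3 and 5, where the other 3 mice had 1.08, 0.63 and 0.62 FPKM, and its groups overlapped in all 4 comparisons. The means were 1.22 ± 0.651 FPKM in LowMg-HFD and 0.704 ± 0.229 FPKM in NormMg-HFD (SD, n = 5 each), a ratio of 1.74 that was not tested at these low levels. Lrp6 lay between 18.01 and 25.36 FPKM, with group means of 20.1 to 23.0 FPKM. Its differences ranged from -0.15 to 0.13 on the log2 scale, and none passed the test where one was made.

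Ctnnb1, which carries the signal from the membrane to the nucleus, was 107.79, 125.94, 133.71, 141.56 and 123.29 FPKM in LowMg-LFD and 132.33, 163.92, 153.42, 159.77 and 155.61 FPKM in LowMg-HFD. Every LowMg-HFD mouse but replicate 1 was above every LowMg-LFD mouse. The log2 difference was small, 0.27 ± 0.10 (SE), and did not pass the test (limma, adjusted p = 0.110), though it did without NormMg-LFD replicate 4, a mouse outside the 2 groups (adjusted p = 0.0429). It depended on scaling, at 0.11 with median centring (adjusted p = 0.538) and 0.18 with quantile normalization (adjusted p = 0.32, limma). In the untested comparison at normal Mg2+ the difference was 0.22 ± 0.11 (SE). Adjusted p-values for the Mg2+ comparisons were 0.396 on the HFD and 0.863 on the LFD.

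Tcf7l2, a DNA-binding partner of β-catenin, also stayed under the threshold. It was 8.87, 10.54, 6.01, 12.34 and 8.21 FPKM in LowMg-LFD and 9.48, 6.55, 7.87, 5.49 and 6.32 FPKM in LowMg-HFD, a log2 difference of -0.31 ± 0.19 (SE, adjusted p = 0.361, limma). With median centring it was -0.48 (adjusted p = 0.155) and with quantile normalization -0.51 (adjusted p = 0.15, limma). The groups overlapped widely. At normal Mg2+ the untested difference was -0.49 ± 0.20 (SE), from a mean of 9.23 to 6.17 FPKM. Lef1, a further DNA-binding partner, was at most 1.24 FPKM in all mice except NormMg-LFD replicate 4 (2.27 FPKM) and LowMg-HFD replicate 4 (5.45 FPKM), and the last mouse set its LowMg-HFD mean of 1.58 ± 2.17 FPKM (SD). In that mouse the mesothelial sum was 109 FPKM, against 22.1 to 53.6 FPKM in the rest of its group. The log2 differences of Lef1 were 0.33 ± 0.36 (SE) with fat at low Mg2+ and 0.40 ± 0.36 with low Mg2+ on the HFD. Both rested on that mouse: the rest of LowMg-HFD had 0.36 to 0.84 FPKM, within the ranges of LowMg-LFD (0.36 to 1.12) and NormMg-HFD (0.28 to 0.96). Because Lef1 met the requirement for testing only through a mouse of a group in both comparisons, no test of it is given there and it is left out of the counts of members tested in them.

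**Figure D2:**
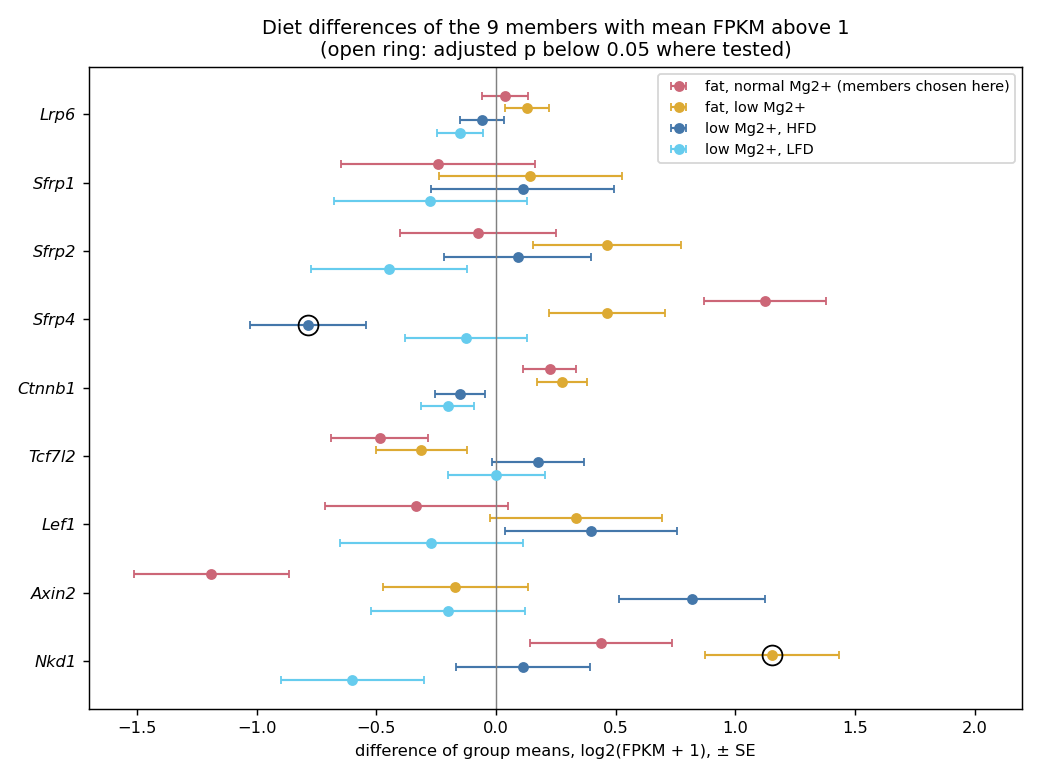
Log2(FPKM + 1) difference ± SE (x axis) of the 9 genes with a mean above 1 FPKM in 4 comparisons (colours), with open rings around those that passed the limma test where one was made. The rings are at Nkd1 for fat at low Mg2+ (1.15) and at Sfrp4 for low Mg2+ on the HFD (-0.79), and the comparison at normal Mg2+, in which Axin2 differed by -1.19, carries no test.

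Over the genes tested, the median difference with fat at low Mg2+ was 0.21 among the 8 without Lef1 and 0.11 among all 14267. As FPKM is a share of each library, that overall shift depends on scaling: with each library centred on its median it became -0.06 (0.04 among the 8), and the split of all calls went from 1026 higher and 284 lower to 358 higher and 560 lower. Nkd1 remained higher by 0.99 (adjusted p = 0.0471, limma), whereas the small differences of Sfrp1 and Lrp6 changed sign. In the Mg2+ comparison on the LFD none of the 8 genes tested passed, nor did any of all 14267 (0%), of which 830 had an unadjusted p under 0.05 (limma). None of the 8 had one, and none of the 9 genes was without overlap between the LFD groups, against 1.56% of all genes tested.

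A wider list of 100 Wnt pathway genes outside the 10 was examined in the same fit. It too was drawn up with earlier results of these data known, so its p-values are not those of an unselected list. The table held 99 of them and 64 were tested. With fat at low Mg2+, 3 of the 64 (4.69%) rose and none fell, against 9.18% of all genes called, a share that depends on single libraries as given above. These were Sfrp5, a secreted inhibitor made by adipocytes (3.02 ± 0.48, SE, adjusted p = 0.00152), Wisp2, a secreted protein of adipose precursor cells (2.15 ± 0.42, adjusted p = 0.00403), and Cd44, a hyaluronan receptor that is a Wnt target and also a leukocyte protein (1.51 ± 0.30, adjusted p = 0.00460). Fat at normal Mg2+ moved 18 of the 64 (28.1%), 6 higher and 12 lower, against 26.9% of all genes.

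In that comparison 17.2% of all genes rose and 9.67% fell, with a median of 0.01. That split of 2452 higher and 1380 lower became 1982 and 1712 with median centring and 2000 and 1721 with quantile normalization. Of the 9 tested genes for ligands or their secretion 5 fell and none rose, with a median of -0.69. Rspo1, an amplifier of Wnt signalling, fell by 1.85 on the log2 scale, from a mean of 20.1 ± 9.26 to 4.49 ± 1.28 FPKM (SD; limma, adjusted p = 0.00125). Wnt2b fell by 1.35, Porcn, the enzyme that attaches the lipid Wnt proteins need for secretion, by 0.89, Wnt5b by 0.88 and Wnt9a by 0.69. Wnt5a did not pass the test (0.15, adjusted p = 0.641).

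Among receptors the Frizzled gene Fzd4 fell by 0.76, from 119 ± 9.21 to 70.1 ± 9.38 FPKM (SD; limma, adjusted p = 0.000118), and the co-receptor Lrp5 by 0.52, whereas Fzd5 rose by 0.44. Apcdd1, a membrane-bound inhibitor and Wnt target, fell by 1.47, from 76.4 ± 10.4 to 27.8 ± 8.40 FPKM (adjusted p = 1.14e-05, limma). The nuclear partners Pygo1, Bcl9 and Tcf7l1 and the cytoplasmic Dvl2 fell by 0.57, 0.53, 0.48 and 0.23. Apcdd1 was listed with the inhibitors and Axin2, also a target, is one of the 10 genes, and both were lower in NormMg-HFD. Of the 8 tested genes listed as targets 4 rose and none fell, namely Cd44 (3.05), Wisp2 (1.69), Fosl1 (0.92) and Ccnd1 (0.72). Sfrp5 rose by 1.57 (adjusted p = 0.0280, limma), a call that ended without the library high in pancreas genes (adjusted p = 0.0657). The difference of Sfrp5 stayed between 1.33 and 1.83 under all 28 alternatives. Of the 15 largest of these calls 6 were lost under some alternatives, Ccnd1 and Bcl9 under 9, Sfrp5 under 7, Wnt5b under 6, Wnt9a under 3 and Pygo1 under 2. Frzb, another secreted inhibitor, had 1.06 FPKM at most and was not tested, and Tcf7 did not pass in any comparison.

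Low Mg2+ on the HFD moved 3 of the 64 (4.69%), against 10.8% of all genes, and 5 without NormMg-HFD replicate 5 or without LowMg-HFD replicate 2. Apcdd1 rose by 1.19 ± 0.17 (SE, adjusted p = 0.00300, limma), from 27.8 ± 8.40 to 63.9 ± 14.1 FPKM, and Fzd4 by 0.63 ± 0.11 (adjusted p = 0.00407), from 70.1 ± 9.38 to 109 ± 14.3 FPKM. Both genes, like Cd44, did not overlap between the HFD groups. This held for 6 of the 64 genes, close to the 9.22% of all tested genes. Cd44 fell by 1.53 ± 0.30 (SE, adjusted p = 0.00480, limma). All 3 share the NormMg-HFD mice with the comparison above, so the opposite signs of the 2 comparisons are not independent. On the LFD no gene of the list passed, nor did any of all 14267, and 8 of the 64 had an unadjusted p under 0.05, beside 830 of the 14267 (limma). The interaction of fat and Mg2+ reached an adjusted p of 0.0563 for Apcdd1 and 0.0576 for Fzd4, and none of the 64 passed (limma). Of the 64, 16 had an unadjusted p under 0.05, beside 2374 of all 14267 genes, none of which passed either.

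**Figure D3:**
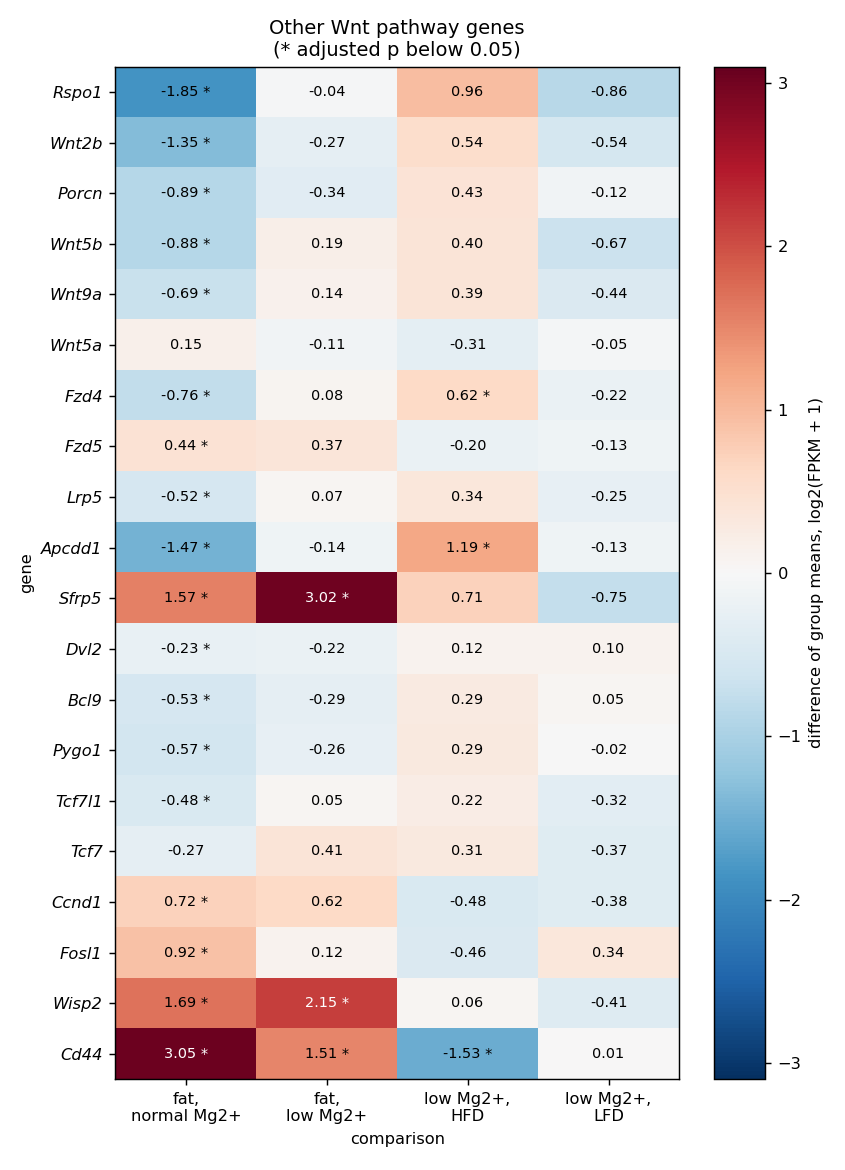
Log2(FPKM + 1) differences (colour and number) of 20 further Wnt pathway genes (rows) in 4 comparisons (columns), with an asterisk where the limma test passed. The first column holds 18 asterisks, and Apcdd1 and Fzd4 are -1.47 and -0.76 there and 1.19 and 0.63 for low Mg2+ on the HFD.

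The cell type markers of the tissue moved with the same diets, and in bulk tissue fewer cells of a type and less RNA per cell cannot be told apart. With fat at normal Mg2+, 10 of 12 macrophage markers rose and none fell (median 1.94), 10 of 14 adipocyte markers fell and 1 rose (median -0.71), 5 of 8 mesothelial markers fell and none rose (median -1.47), and 4 of 13 stromal progenitor markers rose and none fell (median 0.34). The summed macrophage level was 509 to 614 FPKM in NormMg-LFD, 1880 to 2890 in NormMg-HFD, 620 to 1670 in LowMg-HFD and 384 to 732 in LowMg-LFD. The summed mesothelial level was 45.2 to 124, 12.5 to 27.6, 22.1 to 109 and 24.0 to 122 FPKM in the same order. The summed stromal progenitor level was 1210 to 1430, 1770 to 2280, 1090 to 1400 and 841 to 1380 FPKM, so that NormMg-HFD was above all other mice. The sum leaned on collagens: Col3a1 was 238.1 to 337.13 FPKM in NormMg-LFD and 699 to 1067.59 in NormMg-HFD, and Col1a1 50.44 to 74.33 and 132.08 to 196.51. Other genes of the list overlapped between these groups, among them Dcn (521.35 to 709.25 and 489.8 to 652.52 FPKM) and Pdgfra (12.32 to 22.12 and 14.79 to 20.36). No macrophage or mesothelial marker was at 0 in any mouse, and 1 stromal progenitor marker was at 0 in LowMg-HFD replicate 2. With fat at normal Mg2+, 2 of 10 endothelial and 1 of 6 smooth muscle markers fell and 1 of 5 T cell markers rose. With low Mg2+ on the HFD, 8 of 14 adipocyte, 3 of 10 endothelial and 1 of 8 mesothelial markers rose, and 10 of 12 macrophage, 3 of 13 stromal progenitor and 1 of 5 T cell markers fell, where 427 of all 14267 genes rose and 1109 fell. With fat at low Mg2+, the comparison of the Nkd1 call, 6 of 12 macrophage, 2 of 13 stromal progenitor, 1 of 10 endothelial, 1 of 5 T cell and 1 of 6 smooth muscle markers rose, and 3 of 14 adipocyte markers fell and 1 rose, where 1026 of all genes rose and 284 fell. The part of these cell types in the differences of Axin2, Sfrp4, Nkd1 and the wider list was not tested.

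Across the 19 mice the genes whose log2 levels were most like that of Axin2 were Bcam (Pearson r = 0.89), Sdr39u1 (0.89), Idh2 (0.89), Hexim1 (0.88) and Neo1 (0.87). With each mouse taken as its deviation from its group mean, the 5 closest were Idh2 (0.84), Bcam (0.83), Igsf3 (0.82), Cd200 (0.81) and Wdr6 (0.81), so Idh2 and Bcam were close on both measures. NormMg-LFD replicate 4, the highest in Axin2, enters all of these values. Within the pathway r with Axin2 over the 19 mice was 0.66 for Apcdd1, 0.57 for Fzd4, 0.52 for Lef1, -0.13 for Nkd1 and -0.57 for Sfrp4. Within groups it was 0.57 for Lef1, 0.53 for Ctnnb1 and 0.30 for Nkd1, and near 0 for Apcdd1 (0.09), Fzd4 (-0.07) and Sfrp4 (-0.06).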

How the data were processed

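Total RNA of eWAT from 19 mice was sequenced by the authors as 50 bp single-end reads, mapped to the GRCm38/mm10 transcriptome with HISAT/Bowtie2 and quantified with RSEM 1.2.31, and they deposited FPKM values for each gene and mouse. The authors also deposited, per library, a count of the reads and the percent that mapped. FPKM is a share of the mapped reads, so a few abundant genes can shift all others. Of 24250 lines, 24238 were gene rows, 1 of which was not usable, and 26 symbols altered to dates by spreadsheet software were recovered through their gene IDs. The study excluded 1 LowMg-HFD mouse for pancreas tissue, but the labels do not mark it, the library high in pancreas genes is labelled NormMg-LFD replicate 3, and all mice were used here. Reads behind a value were estimated from FPKM, the longest listed transcript and the mapped reads.

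log2(FPKM + 1) of the 14267 genes with a mean above 1 FPKM over all mice was fitted with limma 3.58.1 (trend, R 4.3.3) as 4 groups in one model, and p-values were adjusted by Benjamini-Hochberg over all genes tested, with a threshold of 0.05. Fold changes on this scale understate the change of low genes. Each mouse is 1 replicate. The steps were tested on simulated data. The members and lists were chosen with earlier results of these data known. Members were not tested at normal Mg2+ between fat contents or for the interaction, and Axin2 not in either Mg2+ comparison. Named beyond the 10 members were the Wnt pathway genes past the threshold, up to 15 per comparison by size (Tcf7l1, Fzd5 and Dvl2 lie beyond these 15 and were added after their values were seen), together with Sfrp5, Frzb, Wnt5a, Lrp5, Tcf7, Fzd4 and the 5 genes most like Axin2 on each measure. Alternatives were a pseudocount of 0.1, the study's filter of 8 FPKM, no filter, median centring, quantile normalization, no variance trend, only the groups compared, a replicate block, and leaving out each mouse; leaving out 2 libraries together was chosen after seeing the data.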

Additional observations from a re-analysis of the deposited data

Results flagged for a closer look

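In 3 of the 40 combinations of a gene and a diet group, 1 mouse lay far from the rest of its group by Dixon's test on the log2 scale, which chance alone gives in about 1 of 20 groups. Lef1 was 5.45 FPKM in LowMg-HFD replicate 4, where the other 4 mice had 0.36 to 0.84 FPKM. The same mouse, also the lowest of all in Sfrp2 (3.25 FPKM), had a mesothelial sum of 109 FPKM against 22.1 to 53.6 in the rest of its group. Its epididymis sum was 29.8 FPKM against 0.85 at most, but 27.54 FPKM of it was 1 gene, Cst8, and 6 of the 10 epididymis genes were at 0. Ctnnb1 was 189.29 FPKM in NormMg-LFD replicate 4, where the other 3 mice had 130.29 to 136 FPKM, and the same mouse also had the highest Axin2 (31.33 FPKM) and Sfrp1 (25.83 FPKM) of all mice. It was also the highest of all mice in the sums of mesothelial, smooth muscle and endothelial markers (124, 202 and 487 FPKM). By mean log2 level over the mesothelial list it was not the highest (3.22, against 3.42 in LowMg-LFD replicate 4). Lrp6 was 19.92 FPKM in NormMg-HFD replicate 3, against 23.20 to 24.49 FPKM in the other 4 mice.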

How the results depend on the processing

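Replicate numbers recur across the groups, and the labels do not say that they pair mice. Over 27 same-numbered pairs the correlation of deviations ranged from -0.22 to 0.45 (median -0.01), and 6 exceeded 0.1. Over 108 pairs of other numbers it ranged from -0.52 to 0.306 (median -0.001), and 18 exceeded 0.1. Of 19 mice, 6 correlated best with a mouse of their own number. Pairing itself was not tested. A fit with the replicate number as a replicate block called 1182 genes with fat at low Mg2+ instead of 1310, and 3751 instead of 3832 with fat at normal Mg2+, and among the members it kept the 1 call in each of 2 comparisons. Over 46 results for single genes and 28 alternatives each where a value could be had, 1185 of 1260 values kept direction and side of the threshold, 54 lost it, 2 gained it and 19 changed sign. For fits in which 1 library was left out, members called with fat at low Mg2+ numbered 1 to 2 and all genes 704 (without LowMg-HFD replicate 2) to 1478, with 773 without LowMg-HFD replicate 1 and 727 without LowMg-LFD replicate 1. With low Mg2+ on the HFD, members called were 0 to 1, Wnt pathway genes 3 to 5 and all genes 850 (without NormMg-HFD replicate 3) to 1690, with 1011 without NormMg-HFD replicate 1, and 942 and 987 without LowMg-HFD replicates 3 and 5. The interaction called 0 to 331 genes, highest without LowMg-HFD replicate 2 (297 without LowMg-HFD replicate 1, 132 without NormMg-HFD replicate 5), and 0 to 4 pathway genes, highest without LowMg-HFD replicate 1.

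Fitting only the groups compared called 402 genes and 0 members with fat at low Mg2+, in a fit of fewer samples. Quantile normalization raised the pathway calls there to 5, and the study's filter of 8 FPKM, which tests fewer genes, left 10 pathway calls with fat at normal Mg2+ instead of 18. The member call on the HFD, Sfrp4, went to 0 with a pseudocount of 0.1, the study's filter (Sfrp4 not tested), no filter, median centring, quantile normalization, only the groups compared, and both libraries left out. No filter gave 1 gene for Mg2+ on the LFD. For the interaction the study's filter gave 104 genes and 2 of the pathway, quantile normalization 39 and 2, no filter 2 and both libraries left out 1. Other values that changed sign were small. With fat at low Mg2+, median centring gave -0.02 for Sfrp1 and -0.04 for Lrp6, and quantile normalization -0.02 and -0.01. On the LFD, quantile normalization gave 0.06 for Sfrp4, and both libraries left out gave -0.01 for Tcf7l2. Leaving out 1 mouse moved Sfrp1 between -0.07 and 0.31 (fat at low Mg2+), -0.10 and 0.34 (Mg2+ on the HFD) and -0.54 and 0.15 (Mg2+ on the LFD), Sfrp2 between -0.09 and 0.41 and Lrp6 between -0.11 and 0.01 (Mg2+ on the HFD), and Tcf7l2 between -0.20 and 0.13 (Mg2+ on the LFD). The cause was not tested for these changes. FPKM carries no read counts, so counting error per value is not known, and low genes such as Lef1 and Wnt10b are the least certain.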

Other observations

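Nkd1 and Sfrp4 were compared with all other tested genes in the same way as Axin2, a step chosen after their values were seen. Over the 19 mice the genes most like Nkd1 were Cryab (r = 0.93), Vgll3 (0.91), Col18a1 (0.91), Metrn (0.90) and Pcolce2 (0.89), and Sfrp5 reached 0.87. With group means removed, Lep, which encodes the adipocyte hormone leptin, came first at 0.91, followed by Atp2a3 (0.89), Agpat5 (0.87), Lbp (0.86) and Cryab (0.86), and Sfrp5 was at 0.76. The LowMg-LFD mouse with the high Nkd1 value, replicate 3, enters all of these values.

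Over the 19 mice the genes most like Sfrp4 were Mfap5 (r = 0.93), Tspan31 (0.92), Akr1b10 (0.92), Vim (0.92) and Fn1 (0.92). With group means removed they were Lman2 (0.88), Fbn1 (0.88), Emilin2 (0.86), Fn1 (0.83) and Fndc1 (0.83), and r with Sfrp1 was -0.78. Fbn1 is on the list of stromal progenitor markers. The sum of that list was highest in NormMg-HFD and leaned on collagens, while other genes of the list, such as Dcn and Pdgfra, overlapped between NormMg-LFD and NormMg-HFD. These are descriptions of 19 mice that share 4 diets, and no test was made.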
